A study of Mus musculus with 2 samples.

Results

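Genes of DNA methylation, Polycomb repression and chromatin modification were described in the stomach of the mouse embryo at 14.5 days of gestation (E14.5). The set held 47 named genes, chosen by symbol for their known role. The rule used no measured value, but the choice was made with earlier results of these data known. All 47 were found in the gene tables of both libraries, out of 43346 Ensembl gene identifiers. The study measured total RNA of 2 stomachs of strain B6NCrl with 1 library each, called biological replicates 1 and 2, with no genetic change or treatment named in the labels. Each library came from the stomach of a single pup, collected on day 15 (replicate 1) and day 17 (replicate 2) of the same month, from 10 ng of starting RNA. The labels call the sex pooled although each stomach is from 1 pup, and they name no second condition, so no condition was compared. A whole stomach is a mixture of cell types, so fewer cells of a type and less RNA per cell cannot be told apart in any value below.

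DNA methylation is laid down on cytosines by the DNMT enzymes, is copied to the new strand after replication with the help of the reader UHRF1, and is oxidised toward removal by the TET enzymes. Polycomb repressive complex 2 (PRC2) methylates lysine 27 of histone H3 through EZH1 or EZH2, while Polycomb repressive complex 1 (PRC1) ubiquitinates histone H2A through RING1 or RNF2. Around these stand enzymes that add or remove acetyl and methyl groups on histones, and ATP-driven machines that move nucleosomes, many of which come as pairs or trios of related genes (paralogs) that can take the same place in a complex.

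The libraries held 25072242 (replicate 1) and 25599910 (replicate 2) expected counts, and a chi-square over genes of 153110 on 17509 degrees of freedom showed only that they are not the same library deposited under 2 names. Markers of the labelled tissue were present in both libraries: 7 of 7 genes of gastric epithelium, 6 of 6 of stomach mesenchyme, 5 of 5 of smooth muscle and 8 of 8 of proliferation reached a TPM of 1 (a level scaled to transcript length and library total) in both. Markers of red cells (6 of 6), macrophages (6 of 6) and enteric neurons (5 of 5) did as well. The libraries parted at the pancreas, where the summed level of 7 markers was 454.66 TPM in replicate 1 and 5.10 TPM in replicate 2, and at Y-linked genes, given below. The part of the pancreas in the values of the regulators was not tested.

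The regulators were broadly expressed. Detection meant a TPM of at least 1 in each library, and 46 of the 47 regulators met this, beside 61.8% of 21474 protein-coding genes. Their median level was 32.1 TPM in replicate 1 and 31.9 TPM in replicate 2, beside 18.9 and 17.8 TPM for the 13271 detected protein-coding genes. Of the 47, 34 stood above that median in both libraries, beside 6451 of the 13271. Levels spanned from Cbx7 (3.83 and 4.18 TPM) to Cbx3 (378.72 and 361.97 TPM) among the detected. The gene that was not detected, Dnmt3l, had 2 and 6 counts (0.25 and 0.52 TPM).

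**Figure D1:**
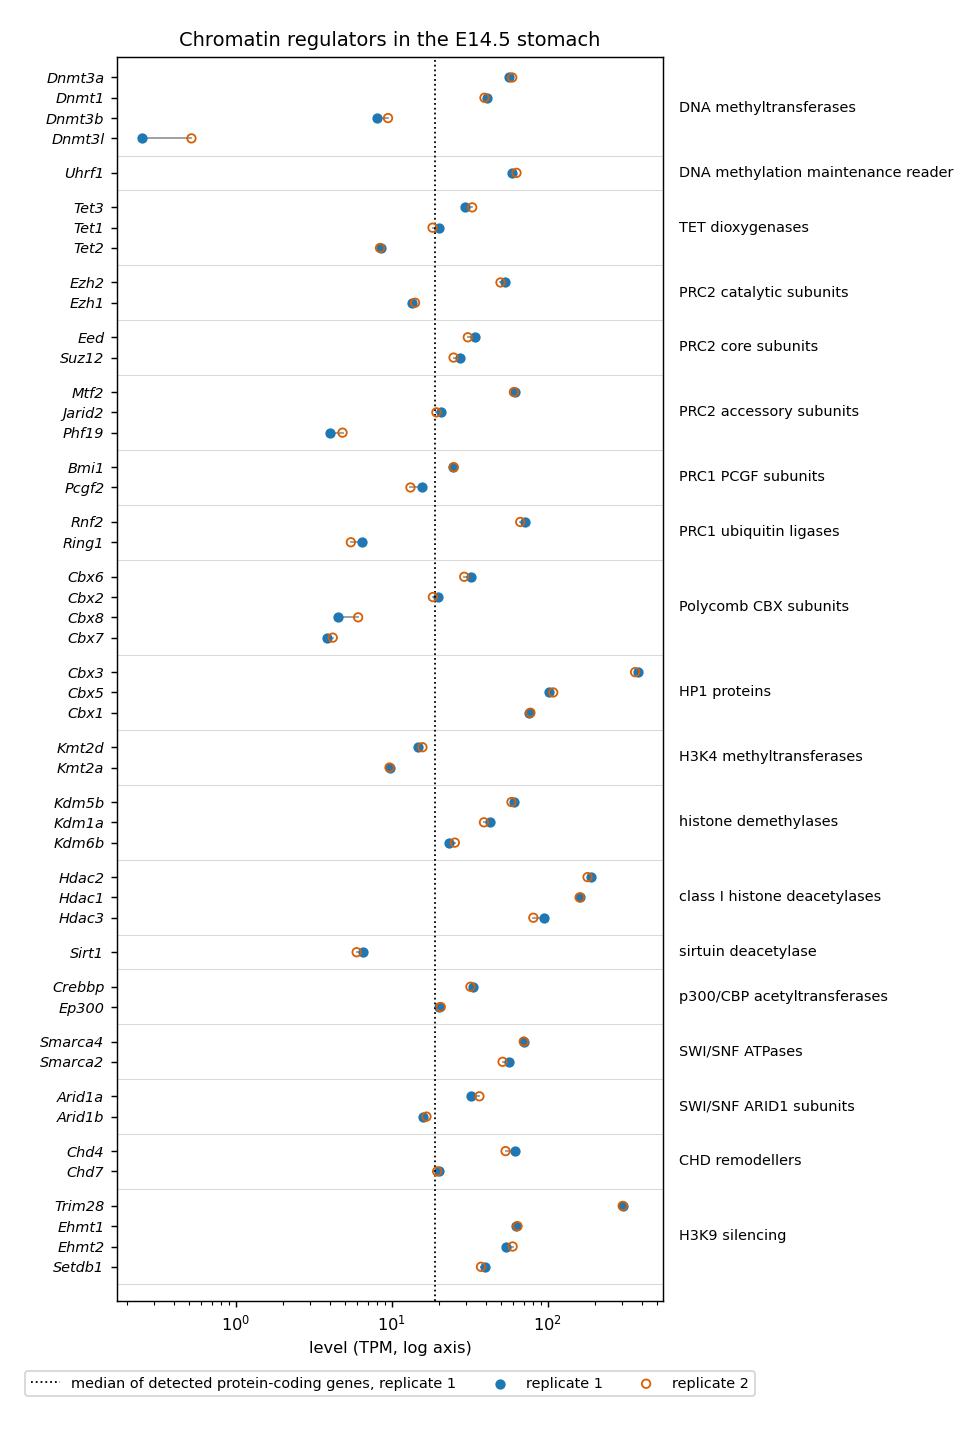
Level of each of the 47 regulators in TPM (log axis) in replicate 1 (filled) and replicate 2 (open), grouped by complex and ordered by mean within a group, with a line joining the libraries and a dotted line at the median of detected protein-coding genes in replicate 1 (18.9 TPM). Dnmt3l is the only gene left of 1 TPM, and Cbx3 and Trim28 lie farthest right.

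Among the DNA methyltransferases, Dnmt3a had the highest total level and Dnmt3b a low one. Dnmt3a, a de novo enzyme that methylates unmodified sites, had 56.18 and 59.03 TPM in replicates 1 and 2. Dnmt1, the maintenance enzyme, had 40.91 and 39.21 TPM, and its partner Uhrf1, which reads hemimethylated sites, had 59.25 and 62.89 TPM. Dnmt3b, the second de novo enzyme, had 8.07 and 9.45 TPM, from 484 and 516.65 counts. The ranges of Dnmt3a, Dnmt1 and Dnmt3b over the 2 libraries did not overlap each other. Dnmt3l encodes a partner of the de novo enzymes without catalytic activity, known from germ cells and early embryos, and 6 markers of germ line and pluripotency were listed beside it. None of the 6 was detected in both libraries, the highest being Ddx4 at 1.36 and 0.39 TPM.

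Forms of Dnmt3b that skip exons were abundant. Of its annotated coding transcripts, 4 of 10 lack a pair of exons of 70 and 119 bases that lie in the part encoding the catalytic domain, and splice forms without them are known to lack methyltransferase activity. The 4 took 50.8% of the coding TPM in replicate 1 and 73.9% in replicate 2 (62.3% ± 16.3, SD, n = 2). These shares rest on 245.45 and 355.77 estimated counts, against 232.59 and 135 for the 6 forms that hold both exons. A separate exon of 60 bases was absent from forms with 62.7% and 68.4% of the coding TPM. The transcript with the largest share of the gene, Dnmt3b-206 with 776 codons, lacks all 3 exons and took 46.7% and 50.4% of all Dnmt3b TPM. The split between forms is an estimate made from reads that most of the forms share, and the libraries differed more in it than in the level of the gene. The 3 exons are shown because they set the short and the long forms apart. They are on the plus strand of chromosome 2 in mm10, within Dnmt3b (ENSMUSG00000027478.11, from 153649450 to 153687730), at chr2:153670849-153670908, chr2:153683608-153683677 and chr2:153684359-153684477, as exons 11, 22 and 23 of Dnmt3b-201, all in lower case.
Dnmt3b 60-base exon: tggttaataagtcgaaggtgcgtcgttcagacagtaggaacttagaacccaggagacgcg
Dnmt3b 70-base exon: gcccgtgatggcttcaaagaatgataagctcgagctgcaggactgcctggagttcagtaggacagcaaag
Dnmt3b 119-base exon: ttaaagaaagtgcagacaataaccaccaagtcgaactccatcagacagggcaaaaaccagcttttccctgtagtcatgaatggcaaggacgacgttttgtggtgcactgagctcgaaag

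Dnmt3a and Dnmt1 were carried by long forms in both libraries. The Dnmt3a form of 908 codons took 50.9% and 47.5% of the gene's TPM, and the form of 689 codons, which starts at an internal promoter, took 14.0% and 16.3%. By estimated counts the 908-codon form held 4622.76 and 4804.94 of 5677 and 6146. A Dnmt3a transcript with 72 codons took 13.8% and 12.0% of the TPM on 52.34 and 50.93 counts. Dnmt1 was split between forms of 1620 codons (70.9% and 71.5%) and 1501 codons (29.1% and 28.5%). When only coding transcripts with at least 80% of the gene's longest coding sequence were summed (near-full-length), Dnmt1 stood above Dnmt3a, at 40.91 and 39.21 TPM against 28.61 and 28.01 TPM. The order of these 2 enzymes therefore depended on which transcripts were counted.

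**Figure D2:**
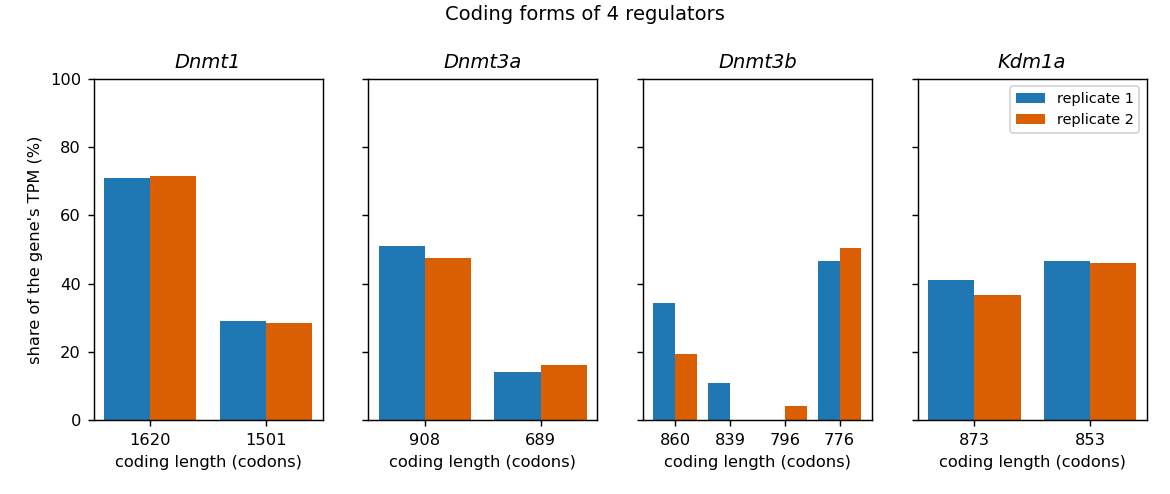
Share of the gene's TPM (%) taken by the named coding forms of Dnmt1, Dnmt3a, Dnmt3b and Kdm1a, by coding length in codons, with 1 bar for each library. The Dnmt1 and Dnmt3a forms keep their order in both libraries, and the 860-codon form of Dnmt3b stands at 34.3% in replicate 1 and 19.3% in replicate 2.

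All 3 TET genes, whose enzymes oxidise 5-methylcytosine, were detected, and Tet3 was the highest. Tet3 had 29.53 and 32.72 TPM, Tet1 20.02 and 18.23 TPM, and Tet2 8.57 and 8.40 TPM. Tet3 thus held 53.0% ± 3.06 of the family's summed TPM (SD, n = 2), Tet1 32.6% ± 2.64 and Tet2 14.4% ± 0.419, and no ranges overlapped. Much of the Tet1 TPM lay in a noncoding entry of 1505 bases, Tet1-202, annotated as a processed transcript. This entry took 49.7% and 46.9% of the gene's TPM on 235.66 and 214.97 counts, and the form of 2039 codons took 27.4% and 25.2%. By estimated counts, coding transcripts held 85.5% and 88.1% of Tet1. Tet2 has a single annotated transcript, all of it coding. Over protein-coding transcripts Tet1 (10.08 and 9.68 TPM) remained above Tet2. Over near-full-length forms Tet3 had 20.27 TPM in each library, Tet2 8.57 and 8.40 TPM and Tet1 5.48 and 6.06 TPM, so Tet1 and Tet2 changed places while Tet3 stayed first. Of 8 further genes of demethylation and imprint protection, 7 were detected, and the highest was Tdg, the glycosylase that removes oxidised bases, at 108.98 and 95.06 TPM.

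In PRC2, Ezh2 outweighed Ezh1 in both libraries. Ezh2, the catalytic subunit known from dividing cells, had 53.05 and 49.67 TPM (2007 and 1975 counts), and its paralog Ezh1 had 13.51 and 14.08 TPM (745 and 802 counts). The ratio was 3.93 in replicate 1 and 3.53 in replicate 2, so Ezh2 held 78.8% ± 1.26 of the pair (SD, n = 2), and 81.2% over near-full-length forms. The core subunits were lower than Ezh2 and higher than Ezh1. Eed, which binds the methylated histone tail, had 34.02 and 30.66 TPM, and Suz12, the scaffold, had 27.22 and 24.85 TPM. Listed apart, the histone-binding subunits Rbbp7 (455.05 and 394.55 TPM) and Rbbp4 (260.64 and 238.50 TPM) are shared with other complexes.

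The PRC2 accessory subunits spanned a wide range. Mtf2, which guides PRC2 to CG-rich DNA, had 61.08 and 60.56 TPM, while Phf19, a paralog of Mtf2, had 4.01 and 4.83 TPM from 224 and 277 counts. Jarid2, of a different PRC2 subtype, had 20.61 and 19.30 TPM from 1822 counts in each library. Much of the Mtf2 TPM lay in short forms: a transcript of 239 codons took 31.8% and 38.0% of it and the longest form of 593 codons 28.9% and 27.9%. By estimated counts the longest form held 1179.65 and 1196.8, against 202.92 and 254.73 for the transcript of 239 codons. Mtf2 also overlaps Tmed5 on the opposite strand, a gene with 1284.93 and 1308.68 counts against 2025.07 and 2108.32 for Mtf2, and without strand in the counting the reads of the shared part cannot be told apart. Among near-full-length forms Mtf2 had 17.67 and 16.88 TPM and Phf19 had 3.15 and 3.46 TPM, so the order of the pair held.

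PRC1 was marked by a wide gap between its ubiquitin ligases. Rnf2 (RING1B) had 71.78 and 66.47 TPM, and Ring1 had 6.43 and 5.46 TPM from 152 and 165 counts. Rnf2 held 92.1% ± 0.446 of the pair (SD, n = 2) and 95.3% over protein-coding transcripts. Rnf2 overlaps Trmt1l on the opposite strand (1219.73 and 1359 counts, against 3460.27 and 3426 for Rnf2). Of the subunits that define canonical PRC1, Bmi1 (PCGF4) had 24.76 and 24.91 TPM and Pcgf2 15.61 and 13.16 TPM, and Bmi1 held 63.4% ± 2.90 of their sum. Pcgf2 had different top transcripts in the 2 libraries.

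Among the Polycomb CBX genes, whose chromodomains read methylated lysine 27, Cbx6 and Cbx2 led. Cbx6 had 32.09 and 29.09 TPM, Cbx2 19.69 and 18.32 TPM, Cbx8 4.49 and 6.08 TPM and Cbx7 3.83 and 4.18 TPM. Their shares were 51.9% ± 2.09, 32.3% ± 0.704, 9.01% ± 2.17 and 6.81% ± 0.619 (SD, n = 2). The order of Cbx8 over Cbx7 turned around over protein-coding transcripts, where Cbx7 had 3.37 and 3.50 TPM and Cbx8 2.55 and 2.37 TPM. It turned back over near-full-length forms, with Cbx7 at 0.79 and 1.02 TPM. Noncoding transcripts took 43.3% of Cbx8 TPM in replicate 1 and 61.0% in replicate 2, on 22.63 and 40.21 counts. Cbx7 came from 212 and 246 counts and overlaps Apobec3 on the opposite strand, which had 492 and 564. Among 17 other PRC1 genes all were detected, from Scml2 (4.20 and 4.61 TPM) to Yaf2 (47.47 and 43.37 TPM).

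**Figure D3:**
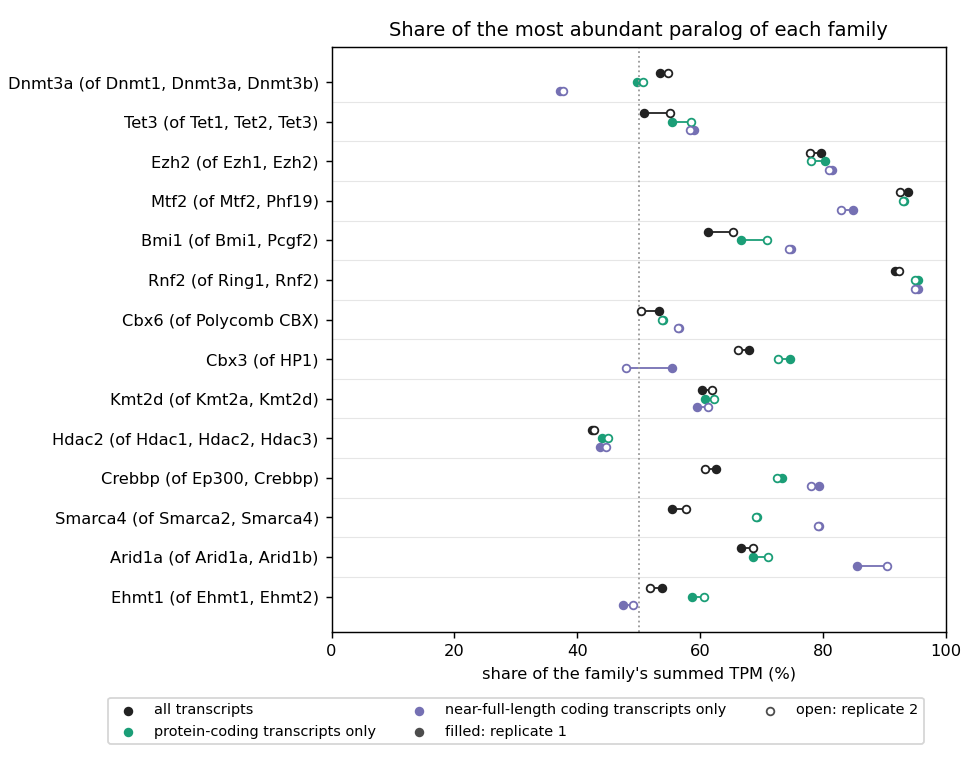
Share of the family's summed TPM (%) held by the most abundant paralog of each of 14 families, in replicate 1 (filled) and replicate 2 (open), over all transcripts (black), protein-coding transcripts (green) and near-full-length coding transcripts (purple). Rnf2, Mtf2 and Ezh2 stay far above the dotted line at 50% in all 3, Hdac2 lies left of it in all 3, Dnmt3a and Ehmt1 lie left of it over near-full-length transcripts, and so do single points of Cbx3 (near-full-length, 47.9% in replicate 2) and Dnmt3a (protein-coding, 49.7% in replicate 1).

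The HP1 genes, whose proteins read methylated lysine 9 of histone H3, were among the most abundant regulators. Cbx3 (HP1 gamma) had 378.72 and 361.97 TPM, Cbx5 (HP1 alpha) 101.91 and 108.09 TPM and Cbx1 (HP1 beta) 76.05 and 77.24 TPM. Cbx3 thus held 67.1% ± 1.34 of the family (SD, n = 2). A Cbx3 transcript annotated with 71 codons took 58.3% and 66.1% of that gene, and the 183-codon forms took 38.7% and 31.3%, or 146.61 and 113.28 TPM. The 183-codon forms of Cbx3 thus stood nearer to the 191-codon forms of Cbx5, at 101.30 and 107.24 TPM. Most Cbx1 TPM (67.2% and 66.9%) lay in a transcript annotated as a target of nonsense-mediated decay (NMD), and its 185-codon form took 21.8% and 20.4%.

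Genes of histone H3 lysine 9 methylation were led by Trim28, the corepressor that recruits SETDB1. Trim28 had 301.68 and 301.39 TPM, which placed it at the 97.0 and 97.1 percentiles of detected protein-coding genes. Its coding transcript of 834 codons accounted for 96.18 and 82.39 TPM only, although it held 5100.59 and 4638.43 of the 6910 and 6649 counts. The rest of the TPM, 68.1% and 72.7%, lay in 8 retained-intron transcripts, of which Trim28-203 is 565 bases long. Setdb1, the methyltransferase, had 39.26 and 37.24 TPM and overlaps Cers2 on the opposite strand (3243 and 3501 counts, against 2645.75 and 2679.19). Ehmt1 (GLP) had 62.51 and 63.84 TPM and Ehmt2 (G9a), its partner in a heterodimer, 53.77 and 59.42 TPM. Ehmt1 held 52.8% ± 1.39 of the pair (SD, n = 2), but near-full-length forms put it at 48.2%, with Ehmt2 ahead in both libraries (30.10 and 26.41 TPM against 27.10 and 25.49 TPM). Of 10 other matched methyltransferases and partners for lysine 9 of H3 and lysine 20 of H4, 10 were detected, with Kmt5c the highest at 44.95 and 43.70 TPM.

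The 3 class I histone deacetylase genes of the set were high and mostly coding. Hdac8 was listed apart, and its lower level is given in the closing section. Hdac2 had 187.71 and 179.45 TPM, Hdac1 160.12 and 159.68 TPM and Hdac3 94.75 and 80.63 TPM. Hdac2 and Hdac1 can stand in for each other in the same complexes, whereas HDAC3 works with the NCOR corepressors. Over near-full-length transcripts Hdac2 (182.01 and 175.07 TPM) and Hdac1 (149.26 and 144.58 TPM) were the highest of all 47 regulators, ahead of Cbx3 and Trim28. Sirt1, the NAD-dependent deacetylase, was low at 6.51 and 5.95 TPM, and 68.3% and 67.2% of that lay in an NMD transcript. Its coding transcripts had 1.07 and 0.70 TPM, nearly all of it in a form of 553 codons (1.07 and 0.64 TPM). The Sirt1 forms of 737 codons had 0 and 0.06 TPM. The acetyltransferase Crebbp had 33.26 and 31.89 TPM and its paralog Ep300 19.91 and 20.57 TPM. Crebbp held 61.7% ± 1.25 of the pair (SD, n = 2), and 72.9% over coding transcripts. Retained-intron transcripts took 30.2% and 31.4% of Ep300.

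The lysine 4 methyltransferase genes of the set lay below the median of detected protein-coding genes (18.9 and 17.8 TPM) in both libraries. The histone demethylase genes of the set lay above it. Kmt2d (MLL4), which marks enhancers with monomethylated lysine 4, had 14.75 and 15.70 TPM, and Kmt2a (MLL1), known for the upkeep of Hox gene expression, had 9.70 and 9.66 TPM. Kdm5b, which removes methyl groups from lysine 4, had 60.81 and 58.42 TPM, and Kdm6b, which removes them from lysine 27, had 23.33 and 25.32 TPM. Kdm1a (LSD1), a lysine 4 demethylase, had 42.29 and 38.91 TPM. Kdm1a was divided between 2 coding forms that differ by an exon of 60 bases. The form with the exon held 46.8% and 44.2% of the coding TPM of forms that span it, and the forms without it 53.2% and 55.8% (54.5% ± 1.80, SD, n = 2). Kdm1a overlaps Luzp1 on the opposite strand, which had 2835 and 3086 counts against 1895 and 1780. The exon is shown because it sets the forms of 873 and 853 codons apart. It lies on the minus strand at chr4:136582040-136582099 in mm10, as exon 3 of Kdm1a-202, within Kdm1a (ENSMUSG00000036940.11, from 136550540 to 136602723).
Kdm1a 60-base exon: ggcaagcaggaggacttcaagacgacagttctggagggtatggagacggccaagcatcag

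The X-linked and Y-linked demethylase genes listed beside them differed between the libraries. Uty, the Y-linked relative of the lysine 27 demethylase gene Kdm6a, had 1256 and 0 counts in replicates 1 and 2, which is at least 425-fold lower in the latter when set against the 3 counts that a count of 0 allows. Kdm5d, Y-linked as well, had 1299 and 2 counts. These were the only 2 of 154 related genes with a mean count of at least 100 that were over 2-fold lower in replicate 2, beside 0.227% of all genes, and none was over 2-fold higher, beside 0.0705%. Their X-linked relatives Kdm5c (22.17 and 39.79 TPM, log2 ratio 0.67) and Kdm6a (14.44 and 19.72 TPM, log2 ratio 0.46) were higher in replicate 2. The autosomal demethylase genes Kdm1a, Kdm5b and Kdm6b had log2 ratios of -0.11, -0.02 and 0.18.

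The ATPases of the SWI/SNF remodelling complex were both abundant. Smarca4 (BRG1) had 69.92 and 70.02 TPM and Smarca2 (BRM) 56.23 and 51.23 TPM, so Smarca4 held 56.6% ± 1.64 of the pair (SD, n = 2). Coding transcripts moved this to 69.2% and near-full-length ones to 79.3%, with Smarca4 at 69.78 and 69.38 TPM and Smarca2 at 18.12 and 18.24 TPM. An NMD transcript of Smarca2 with 299 codons took 24.8% and 23.6% of that gene, while its form of 1583 codons took 32.2% and 31.6%. Arid1a, the DNA-binding subunit of the canonical complex, had 31.93 and 36.40 TPM, and its alternative Arid1b had 15.93 and 16.66 TPM. Arid1a held 67.7% ± 1.33 of the 2 genes (SD, n = 2). All 21 other SWI/SNF genes were detected, by mean level from Dpf3 (4.90 and 3.04 TPM) to Smarcb1 (138.64 and 145.05 TPM). Actl6b and Dpf1, subunits known from neurons, had 4.61 and 5.17 TPM and 7.76 and 4.21 TPM, against 115.64 and 112.88 TPM for Actl6a; these 3 were chosen after their values were seen.

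The CHD remodellers were represented by Chd4, the ATPase of the NuRD deacetylase complex, and Chd7, a remodeller of enhancers. Chd4 had 61.16 and 53.54 TPM, carried by forms of 1922 codons (48.8% and 46.9%) and 1902 codons (29.6% and 34.7%). Chd7 had 20.12 and 19.51 TPM, but its longest forms of 2986 codons took 23.4% and 22.6%, and transcripts annotated with 631 and 941 codons took 47.3% and 24.4% in replicate 1. By estimated counts the longest forms held 803.94 and 798.30 of 1490 and 1569.

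**Figure D4:**
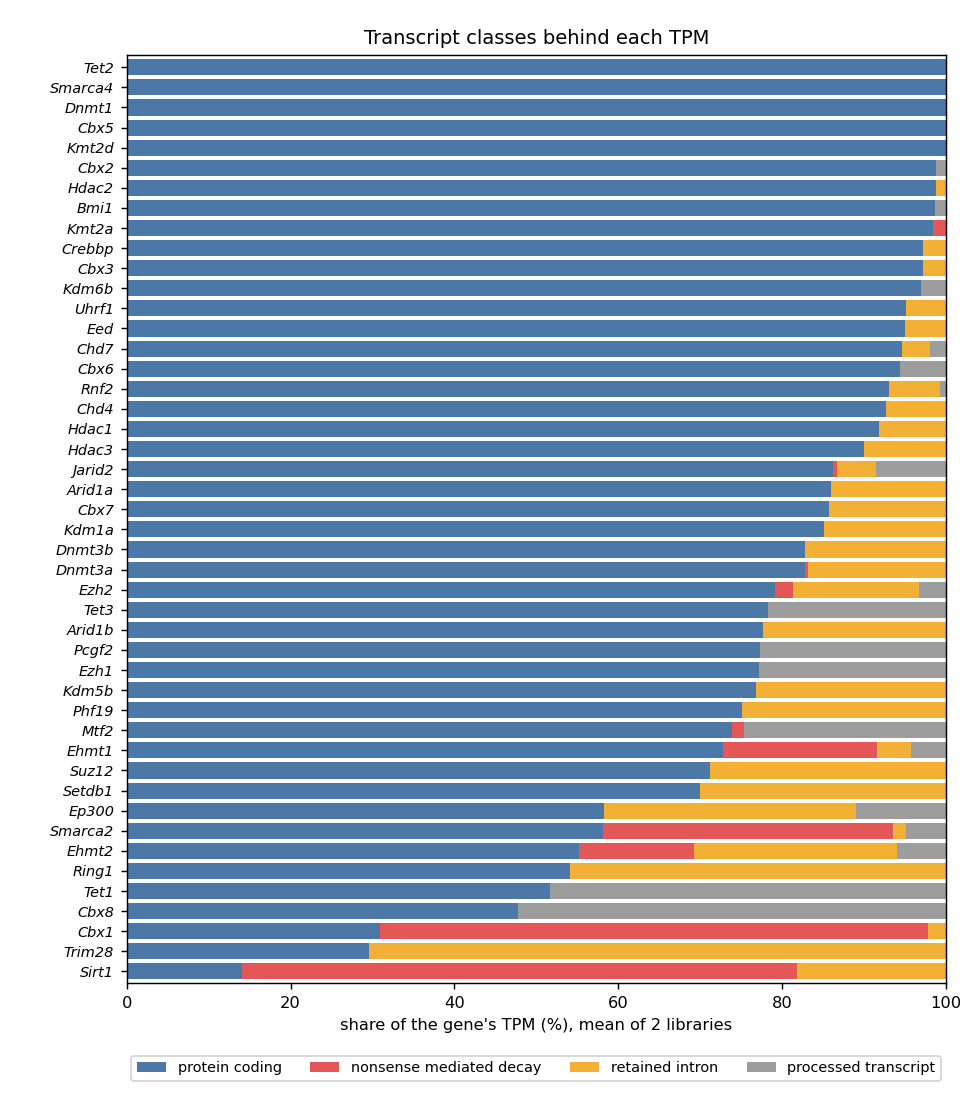
Share of each gene's TPM (%, mean of both libraries) by annotated transcript class for the 46 detected regulators, ordered by the protein-coding share. Tet2, Smarca4, Dnmt1, Cbx5 and Kmt2d are wholly or almost wholly coding, and Sirt1, Trim28 and Cbx1 at the foot are mostly NMD or retained-intron transcripts.

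The coding share of the TPM varied widely among the regulators. The median protein-coding share was 87.7% and 82.6% over the 47 regulators, beside 98.6% and 98.4% over detected protein-coding genes. In 3 of the 46 detected regulators (Cbx1, Sirt1 and Trim28) coding transcripts took under 50% in both libraries, beside 7.52% of detected protein-coding genes, and in 12 near-full-length coding transcripts did, beside 14.8%. At the other end, 19 of the 46 were at 90% coding or more in both, beside 61.6% of detected protein-coding genes. The regulators had a median of 6 annotated transcripts, beside 4 for detected protein-coding genes. The part of this difference in the coding shares was not tested. The same transcript was the highest of its gene in both libraries for 41 of 47 regulators. Among the 46 with 2 or more annotated transcripts this held for 87.0%, beside 89.3% of the 9683 detected protein-coding genes with 2 or more. The 6 others were Cbx6, Cbx8, Ehmt1, Ehmt2, Kdm5b and Pcgf2. For 36 of the 41 the shared top transcript was coding.

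Most pairs of regulators kept their order of level between the stomachs. Of 1035 pairs of detected regulators, 1001 (96.7%) stood in the same order in both libraries. When the 46 were ranked by mean TPM, the ranges of 28 of 45 neighbouring pairs overlapped and those of 17 did not. Neither count was made over all detected genes, so these counts do not set the regulators apart from other genes. The 7 highest, Cbx3, Trim28, Hdac2, Hdac1, Cbx5, Hdac3 and Cbx1, were each apart from the next gene. From Ehmt1 (63.175 TPM) down to Ezh2 (51.36 TPM) every neighbour overlapped, a run that held Uhrf1, Mtf2, Kdm5b, Dnmt3a, Chd4, Ehmt2 and Smarca2 as well. Genes farther apart in that run could still differ, as Ehmt1 (62.51 and 63.84 TPM) stood above Ezh2 (53.05 and 49.67 TPM) in both libraries.

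Between the 2 stomachs the regulators differed about as little as genes at large did. The ratio of replicate 2 to replicate 1 was taken from expected counts with TMM library sizes, with 0.5 added, for the 46 regulators whose counts averaged 100 or more, and with 1 library on each side it has no p-value. None of the 46 was over 2-fold apart, beside 0.298% of 12761 genes, and none lay outside the range from -0.39 to 0.36 on the log2 scale that holds the central 95% of all genes, outside which 5% lie. The median log2 ratio was 0.04 and the median size 0.08, beside 0.10 for all genes. Phf19 was the highest, at 0.28 (224 and 277 counts, ratio 1.22, 95% binomial interval from 1.02 to 1.46), and Suz12 the lowest, at -0.18 (ratio 0.884, interval from 0.822 to 0.953). Hdac3 followed at -0.17, and Cbx7 and Kdm6b stood at 0.19 and 0.18. These intervals cover counting error only, since reads copied by PCR are not independent molecules. Ratios were above 0 in 28 of the 46, or 60.9%, beside 48.1% of all genes, but this count moved with the scaling. It was 1 of 46 with spike-in counts, which shift every log2 ratio by -0.27 and leave 5.13% of all genes above 0. With the deposited TPM ratio it was 19 of 46, or 41.3%, beside 33.4% of all genes.

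**Figure D5:**
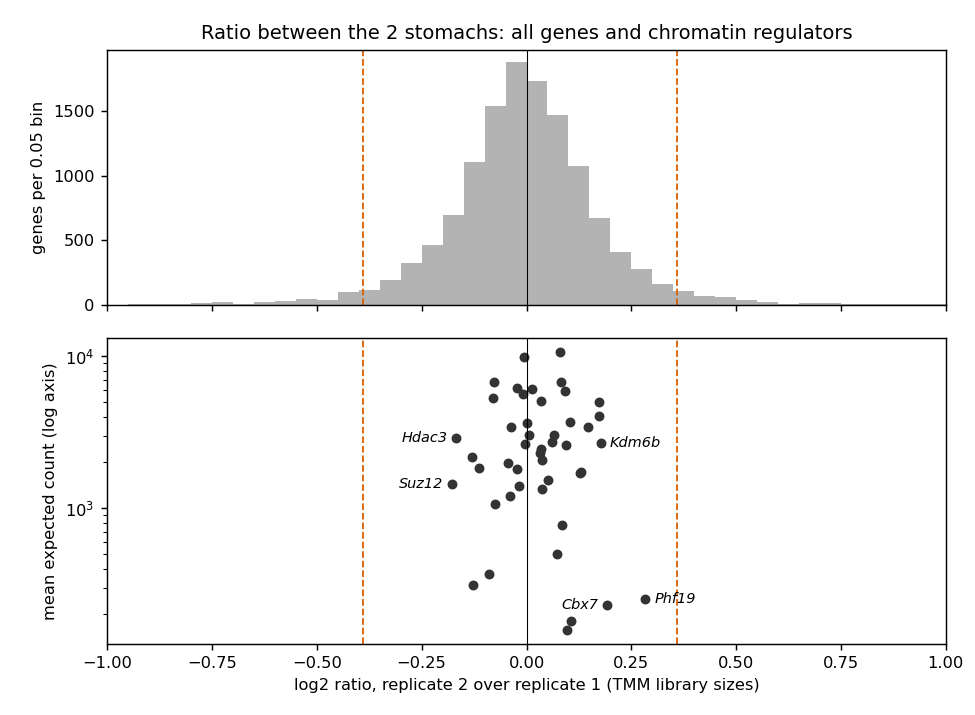
Log2 ratio of replicate 2 to replicate 1: the upper panel counts all 12761 genes whose counts averaged 100 or more, in bins of 0.05 (the 38 over 2-fold apart lie beyond the axis), and the lower panel shows the 46 regulators against their mean expected count (log axis). Dashed lines mark the central 95% of all genes, -0.39 and 0.36, and all 46 points lie between them.

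Promoters were taken from RefSeq on GRCm38.p6 as windows of 300 bases, from 250 before to 50 after a start, and 42 of the 47 regulators had a window; Cbx2, Kdm6b, Hdac1, Hdac3 and Chd7 had none. The richest window of a regulator held a median of 30 CG dinucleotides, from 6 in Dnmt3l to 57 in Tet2, beside 22 for detected protein-coding genes and 3 for the other protein-coding genes. At least 20 were present in 85.7% of the regulators and in 58.9% of detected protein-coding genes. Dnmt3l, the gene that was not detected, was thus also the one with the fewest. The letters TTTCCCGC, TTTGGCGC, TTTCGCGC and TTTGCCGC, known from binding sites of E2F, the factor of genes active in dividing cells, were searched on both strands. They were found in 7 regulators (Arid1a, Cbx3, Dnmt1, Ezh2, Phf19, Suz12 and Uhrf1), or 16.7%, beside 4.69% of detected protein-coding genes and 2.26% of all 32851 windows. Among genes with at least 20 CG the shares were 19.4% and 5.89%. The window of Ezh2 is set beside that of Ezh1 because the pair differs in level and only the former holds such letters, given in capitals, 3 bases from the start. Other families went both ways. The letters were in the paralog of highest total level for Cbx3 and Arid1a. For Phf19 and Dnmt1 they were in a paralog below another without them, Mtf2 and Dnmt3a. A link between these letters and level was not tested. They lie at chr6:47594981-47595280 (Ezh2, minus strand, 31 CG) and chr11:101226414-101226713 (Ezh1, minus strand, 23 CG). A match is a description of the letters, not a measured binding site.
Ezh2 promoter window: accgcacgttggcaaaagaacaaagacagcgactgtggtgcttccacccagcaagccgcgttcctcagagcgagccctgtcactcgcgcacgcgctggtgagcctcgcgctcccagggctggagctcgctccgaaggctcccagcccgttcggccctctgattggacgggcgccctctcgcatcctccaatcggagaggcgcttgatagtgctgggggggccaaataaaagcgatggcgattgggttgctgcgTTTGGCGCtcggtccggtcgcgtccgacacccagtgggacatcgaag
Ezh1 promoter window: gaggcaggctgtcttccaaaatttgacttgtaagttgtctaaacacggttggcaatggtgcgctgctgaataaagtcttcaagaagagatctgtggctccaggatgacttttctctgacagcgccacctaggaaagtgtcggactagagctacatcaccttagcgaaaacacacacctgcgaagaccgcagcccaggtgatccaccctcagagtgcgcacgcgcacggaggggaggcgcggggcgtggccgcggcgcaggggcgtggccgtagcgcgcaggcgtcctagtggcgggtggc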

How the data were processed

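Total RNA of 2 stomachs of 1 group was measured, 1 library each. Per the file headers and labels, the authors used mm10 and GENCODE M4; which programs aligned and counted the reads, and whether strand was used, is not given in the sources used here. The authors deposited expected counts per gene (estimated, not normalized, reads shared between genes split among them, so 14 of the 47 regulators have counts that are not whole), TPM scaled to a total that includes spike-ins (12.1% and 14.2% of it), and the percent of each gene's TPM per transcript. A posterior mean TPM column was deposited by the authors as well. The 26248 numbered entries (15.47 and 25 counts) and spike-ins (5.60% and 6.71% of counts) stayed out of library sizes.

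Computed here were paralog shares of summed TPM, sums over coding and near-full-length transcripts, and log2 ratios of expected counts with 0.5 added, scaled by TMM in edgeR 4.0.16 (R 4.3.3), for genes whose counts averaged at least 100. The ratio script was tested on simulated data. Symbols, positions, classes and coding lengths came from GENCODE M21 on the same assembly: all 333 transcripts matched, 293 with equal length. Alternatives were DESeq2 1.42.0 size factors, spike-in scaling, TPM ratios, other filters and thresholds, posterior means and each library alone.

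Named genes were all 47 regulators; of each list of related genes the highest and lowest; any related gene over 2-fold apart; and the X and Y pairs. A gene that the rule takes is not reported here. Others were named after their values were seen. Members and lists were chosen with earlier results of these data known. At these depths a count of 0 allows 3 counts. The labels name a single pup for each sample, collected on different days, but give both samples the same donor identifier. They were treated as separate embryos, which was not tested. The libraries differed in the Y-linked genes Uty and Kdm5d, with the counts given above. The spread of 2 values therefore includes a difference in Y-linked RNA between the libraries.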

Additional observations from a re-analysis of the deposited data

How the results depend on the processing

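No paired analysis was possible because the study has 1 group. Detection held at 46 of 47 with thresholds of 0.5 and 2 TPM and in each library alone, and was 47 with posterior mean TPM. No regulator was over 2-fold apart under DESeq2 size factors, spike-in scaling, TPM ratios, a pseudocount of 5 or a mean count of 10; with no filter it was 1 of 47, Dnmt3l on 2 and 6 counts. Outside the central 95% of ratios there was 1 regulator, Cbx8 (4.49 and 6.08 TPM), with the deposited TPM ratio. With 2 libraries, leaving out either cannot move a mean past its SD, so this alternative gives no measure of stability.

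Shares of the leading paralog moved most with the transcripts summed. Over protein-coding transcripts they were 50.2% for Dnmt3a (55.2% with posterior mean TPM), 57.0% for Tet3, 68.8% for Bmi1, 95.3% for Rnf2, 73.7% for Cbx3, 44.6% for Hdac2, 72.9% for Crebbp, 69.2% for Smarca4, 69.8% for Arid1a and 59.6% for Ehmt1. Over near-full-length transcripts, a sum added after the transcript tables were seen, they were 37.5% for Dnmt3a, 58.7% for Tet3, 81.2% for Ezh2, 83.9% for Mtf2, 74.7% for Bmi1, 95.2% for Rnf2, 56.6% for Cbx6, 51.6% for Cbx3, 44.2% for Hdac2, 78.7% for Crebbp, 79.3% for Smarca4, 88.0% for Arid1a and 48.2% for Ehmt1. By construction these sums leave out the other transcripts of each gene. For Arid1b the near-full-length sum leaves out the coding form of 1762 codons, which falls below the length cutoff. This form was the highest transcript of Arid1b, with 52.05% and 56.87% of its TPM in replicates 1 and 2 (1368.46 and 1660.16 counts). The 88.0% for Arid1a therefore rests on that cutoff, and a lower cutoff was not tested. The TPM of 20 of 47 regulators moved by over 1.5-fold with the near-full-length sum, of 10 with the coding sum and of 2 with the posterior mean. Low counts limit Ring1, Cbx7, Cbx8 and Phf19, and the forms of Dnmt3b.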

Other observations

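Of 163 genes listed beside the regulators in 14 lists of related complexes, 160 were matched and 155 were detected in both libraries, with a median of 23.7 and 22.9 TPM. Methyltransferases of lysine 36 and lysine 79 of histone H3 were all detected (6 of 6) and lay close together, from Dot1l (18.66 and 19.08 TPM) to Nsd2 (39.43 and 36.21 TPM). The 12 other genes of the COMPASS and MLL complexes of lysine 4 methylation were all detected, from the methyltransferase gene Setd1b (10 and 8.68 TPM) to the subunit gene Dpy30 (133.84 and 127.85 TPM). In the list named for readers of methylated CG, Mbd3 was highest with 148.65 and 147.77 TPM and Zbtb4 was lowest with 3 and 2.94 TPM. Mbd3 was the highest of the NuRD and corepressor list as well, and its binding to methylated CG was not measured. Of 16 other demethylase genes 13 were detected. By mean level the 16 ran from Kdm4d at 0.37 and 0.27 TPM to Kdm5a at 39.93 and 40.03 TPM. Other deacetylases and sirtuins ran, by mean level, from Hdac8 (1.83 and 3.39 TPM) to Sirt2 (48.60 and 49.53 TPM). The remodeller Atrx had 174.05 and 170.28 TPM and Ino80, the lowest of its list, 6.06 and 5.97 TPM. The acetyltransferase Hat1, which acts on newly made histone H4, had 97.37 and 88.44 TPM, and Kat2b was the lowest of the acetyltransferases at 6.33 and 5.75 TPM. The lowest genes of 4 other lists were Chd5 of the NuRD and corepressor list (0.30 and 0.58 TPM), Epop of PRC2 (2.76 and 1.97 TPM), Dppa3 of imprint protection (0 and 0.09 TPM) and Setdb2 of lysine 9 and lysine 20 methylation (8.02 and 7.25 TPM). The H2A deubiquitinase Bap1, which opposes PRC1, had 55.76 and 53.81 TPM, and the cofactor Asxl3 had 2.42 and 2.63 TPM.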
